A study of Homo sapiens with 4 samples.

Results

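The Wnt ligands, receptors and feedback genes were 43 of the 25411 genes in the tables. They were picked by symbol, as every WNT ligand, frizzled receptor (FZD), DKK and SFRP antagonist, the LRP5 and LRP6 co-receptors, and the feedback regulators AXIN1, AXIN2, RNF43 and ZNRF3. RNA was measured in the established human bronchial epithelial line BEAS-2B, in 2 libraries grown without added metal and 2 libraries grown for 72 h with 5 µM cadmium chloride. Both groups grew in the same basal medium (Dulbecco's), and the labels name no genetic change made to the line. Of the 43 genes, 25 had enough reads to be tested, 7 had a few reads, and 11 had 0 reads in all 4 libraries. The comparison asked which of these transcripts differed after cadmium exposure.

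Wnt proteins are secreted lipid-modified ligands that bind frizzled receptors on the cell surface. In the beta-catenin branch, a frizzled receptor joined with LRP5 or LRP6 takes the AXIN scaffold away from the complex that degrades beta-catenin, and beta-catenin then acts with TCF/LEF factors on target genes. DKK1 blocks LRP5 and LRP6, SFRP proteins bind Wnt ligands, and RNF43 and ZNRF3 remove frizzled receptors from the membrane. In the airway epithelium the pathway is known for roles in lung development and in repair after injury.

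Reads assigned to genes ranged from 8609243 in control replicate 2 to 29937242 in cadmium replicate 1. Levels are given in CPM, reads scaled to library size with TMM factors applied, for the same gene across libraries, and in the authors' RPKM, which adjusts for gene length, for comparisons between genes. A value of 3 reads corresponded to 0.0979 CPM in the deepest library and to 0.356 CPM in the shallowest, a limit set by counting alone. Replicates differed beyond sampling noise, since the chi-square per gene was 11.3 for the control pair and 7.35 for the cadmium pair. No label states that replicates came from separate cultures, and every p-value here covers only the spread of these 4 libraries, which may be technical. Experiment 1 in the labels holds the controls and experiment 2 the cadmium libraries, so the experiment cannot be told apart from the treatment. The epithelial keratins KRT8 and KRT18 were abundant in all 4 libraries, with control means of 594 CPM and 235 CPM. The basal keratins KRT5 and KRT14 had at most 1 read in a library, and the keratin KRT19 had at most 7. The epithelial cadherin CDH1 had between 1 and 28 reads. The fibroblast-associated genes COL1A1 and THY1 were high in both groups, whereas COL3A1 and DCN had 0 reads.

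Promoter sequence is shown for 3 genes: LRP5 and FZD4, the members that rose, and DKK1, the member with the highest level. FZD2, the member that fell, had no promoter entry and is not covered. The sequences are from RefSeq on GRCh38.p14, in which 28 of the 43 genes had an entry, and each is the 250 bases before the annotated start, read 5′ to 3′ on the gene's strand. The capitals mark matches to the TCF/LEF core.
LRP5 promoter, chr11:68312341-68312590, plus strand: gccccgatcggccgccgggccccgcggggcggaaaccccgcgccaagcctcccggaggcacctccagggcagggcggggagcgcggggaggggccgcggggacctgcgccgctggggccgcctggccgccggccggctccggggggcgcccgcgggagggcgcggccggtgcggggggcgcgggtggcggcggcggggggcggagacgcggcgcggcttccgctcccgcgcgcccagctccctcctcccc
FZD4 promoter, chr11:86955396-86955645, minus strand: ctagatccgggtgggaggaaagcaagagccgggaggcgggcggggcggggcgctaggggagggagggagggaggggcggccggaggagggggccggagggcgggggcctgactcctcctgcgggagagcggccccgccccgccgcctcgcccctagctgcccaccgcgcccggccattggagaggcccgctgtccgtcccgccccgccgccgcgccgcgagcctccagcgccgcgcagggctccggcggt
DKK1 promoter, chr10:52314031-52314280, plus strand: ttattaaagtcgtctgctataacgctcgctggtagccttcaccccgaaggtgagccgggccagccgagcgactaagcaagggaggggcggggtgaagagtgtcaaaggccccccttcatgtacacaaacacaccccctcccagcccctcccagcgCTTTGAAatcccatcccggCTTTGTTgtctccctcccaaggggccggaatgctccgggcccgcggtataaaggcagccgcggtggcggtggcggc
These 250 bases were 87.2% G and C for LRP5, 80.8% for FZD4 and 62.8% for DKK1, against a median of 58.0% over all promoters. The TCF/LEF core was searched on both strands as CTTTG followed by 2 letters that are each A or T, in windows of 300 bases that also hold the first 50 transcribed bases. It was present in 13.8% of 35116 promoters and in 2 of 32 windows of the Wnt genes (6.25%), those of DKK1 and WNT3. The DKK1 window held CTTTGAA at position -95 and CTTTGTT at position -76 from the start, and the LRP5 and FZD4 windows held no match. The metal response element core, searched as TGCACNC or in the form TGCGCNC on both strands, was present in 29.6% of all promoters and in 13 of the 32 windows (40.6%). It had no match in the LRP5, FZD4 or DKK1 windows. The matching windows were those of WNT1, WNT2, WNT2B, WNT4, WNT5A, WNT6 (positions -150 and -127), WNT7A, WNT9B, FZD8, SFRP2, SFRP4 and SFRP5. Of these genes, only WNT2B, WNT5A and WNT6 had enough reads to be tested. The searched letters of these cores do not overlap, and a match is a description of the sequence only.

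Per gene length, DKK1 and DKK3 were the most abundant of these transcripts and most ligands were near the detection limit. DKK1, a secreted blocker of LRP5 and LRP6, had the highest mean level at 168 RPKM over the 4 libraries, followed by DKK3, a DKK-family protein, at 47.3 RPKM. FZD2 at 31.9 RPKM, LRP5 at 29.3 RPKM and the beta-catenin destruction scaffold AXIN1 at 23.7 RPKM came next. The order of FZD2 and LRP5 was not the same in both groups, since FZD2 was above LRP5 in the controls and below it with cadmium. FZD6 had 15.7 RPKM, and the leading ligand WNT5B had 7.61 RPKM.

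**Figure D1:**
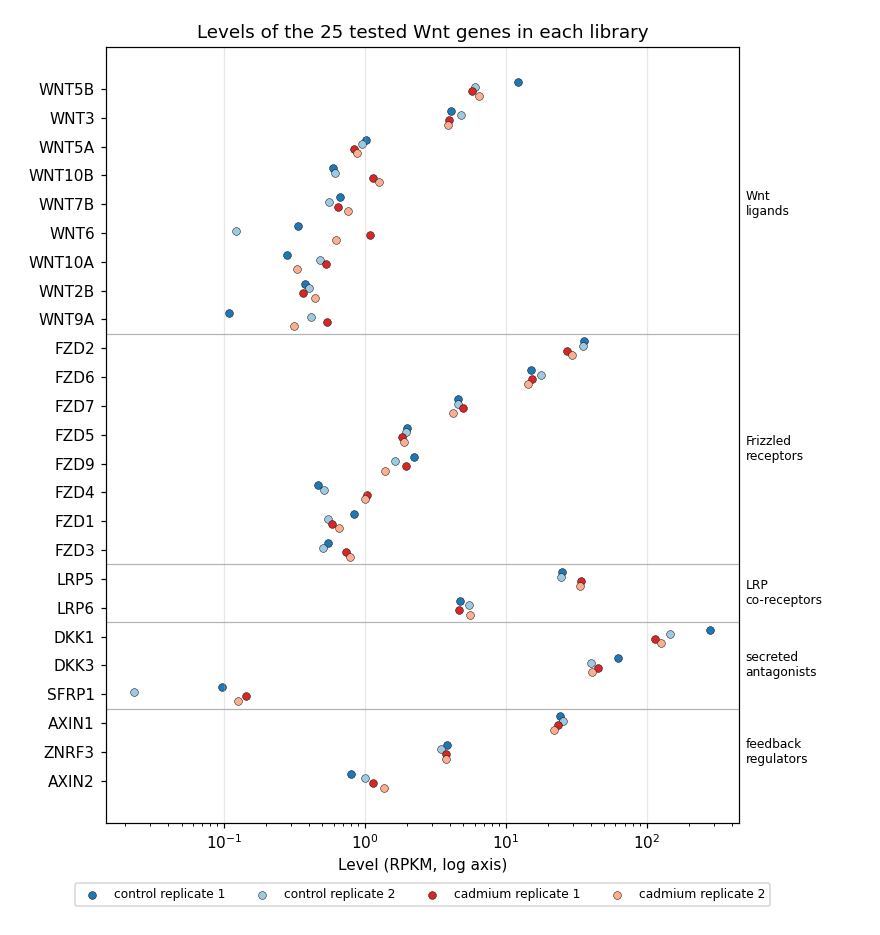
Level of each tested gene in each library in RPKM on a log axis, grouped by family, with 1 point per library. DKK1, DKK3, FZD2, LRP5 and AXIN1 sit furthest to the right, and 11 of the 25 genes have a mean level under 1 RPKM.

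With cadmium, 2 of the 25 tested Wnt genes rose and 1 fell. The co-receptor gene LRP5 and the receptor gene FZD4 rose, the receptor gene FZD2 fell, and 22 did not pass an adjusted p of 0.05 in edgeR's quasi-likelihood test. The share called was 12%, beside 16.5% of all 13663 genes tested (8.85% higher and 7.66% lower), so the Wnt genes as a group were not called more often than genes in general. At an unadjusted p under 0.05 there were 6 of the 25, beside 4642 of all 13663 genes tested, a smaller share for the Wnt genes. The median log2 fold change was -0.02 for the Wnt genes, with 12 positive and 13 negative, and 0.002 for all genes. Both cadmium libraries were above both controls for 7 of the 25 genes (28%) and below both for 7 (28%), against 31.3% and 30.8% of all genes, and the groups overlapped for the other 11. LRP5, FZD4 and FZD2 lost the call without either cadmium library, where fewer calls were also made over all genes. In such a fit the spread comes from the control pair alone. The log2 fold changes of LRP5, FZD4 and FZD2 were 0.41, 1.04 and -0.29 without cadmium replicate 1. They were 0.42, 1.06 and -0.43 without cadmium replicate 2. Without control replicate 2 more genes were called, both among the Wnt genes and over all genes.

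**Figure D2:**
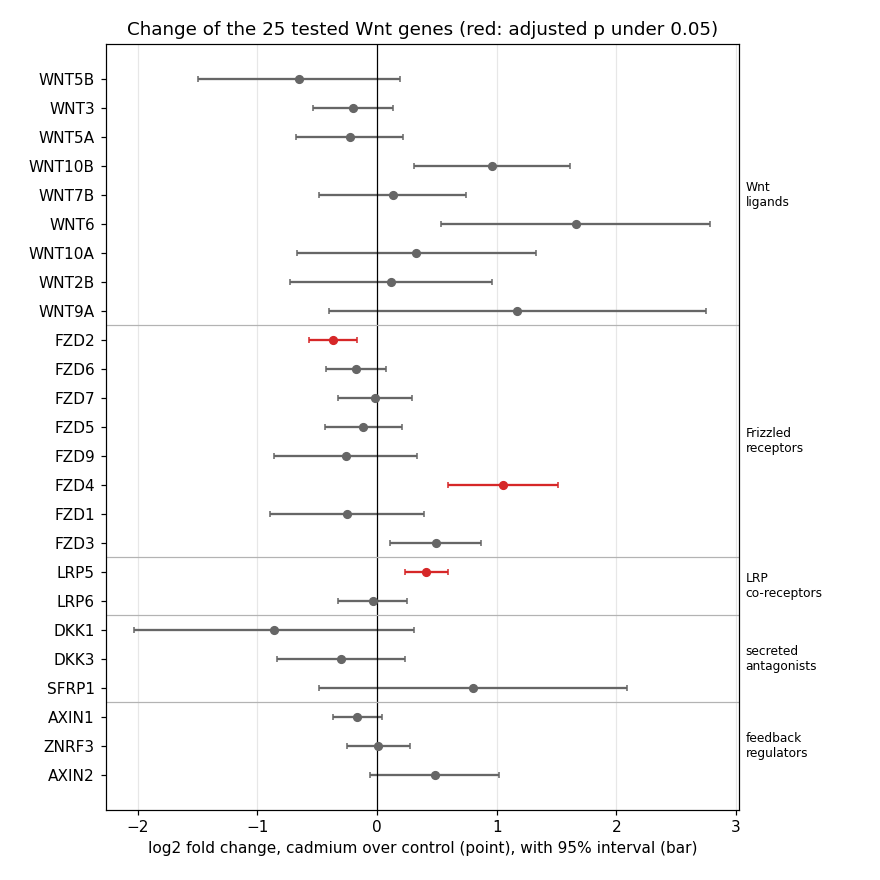
Log2 fold change of each tested gene, cadmium over control, as a point with its 95% interval as a bar, grouped by family and with genes past the adjusted p in red. LRP5 at 0.41 and FZD4 at 1.05 lie to the right of 0 and FZD2 at -0.37 to the left. The widest intervals include those of the low genes WNT9A and SFRP1 and that of the abundant DKK1.

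Among the ligands, 9 of 19 genes were tested, and 0 rose or fell in edgeR's test. At an unadjusted p under 0.05 there were 2, WNT10B and WNT6, both higher. DESeq2 also called 0 ligands, and limma-voom called 2. WNT5B, a ligand known mainly for beta-catenin-independent signalling, made up the largest share of summed ligand RPKM in every library, between 37.3% and 61.0%. Its level was 30.8 CPM and 15.0 CPM in control replicates 1 and 2, and 14.1 CPM and 16.2 CPM in cadmium replicates 1 and 2. Control replicate 1 was high and the other 3 libraries were close together, so the groups overlapped. The means were 22.9 ± 11.2 CPM in control and 15.1 ± 1.48 CPM with cadmium (SD, n = 2 each), with a log2 fold change of -0.65 (SE 0.33, 95% interval -1.49 to 0.19, adjusted p = 0.239). The change was 0.0075 without control replicate 1. It was -1.04 without control replicate 2.

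WNT3, a ligand of the beta-catenin branch, was the next most abundant, with between 20.6% and 32.7% of ligand RPKM. Its levels were 15.8 CPM and 18.4 CPM in the controls and 14.8 CPM and 14.7 CPM with cadmium (log2 change -0.20, SE 0.15, adjusted p = 0.377). WNT5A, a paralog of WNT5B, had 7.14 CPM and 6.65 CPM in the controls and 5.78 CPM and 6.07 CPM with cadmium (log2 change -0.23, SE 0.19, adjusted p = 0.446). For both genes each cadmium library was slightly below both controls, by an amount the test did not call.

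WNT10B and WNT6, both ligands linked to beta-catenin signalling, were low genes with higher values in both cadmium libraries. WNT10B had 1.61 CPM and 1.66 CPM in the controls and 3.04 CPM and 3.35 CPM with cadmium, from 42, 14, 93 and 53 reads. The groups did not overlap, and the log2 fold change was 0.96 (SE 0.28, 95% interval 0.31 to 1.61, adjusted p = 0.0520). WNT6 had 0.653 CPM and 0.237 CPM in the controls and 2.06 CPM and 1.20 CPM with cadmium. These values came from 17, 2, 63 and 19 reads, so control replicate 2 was under the level that 3 reads give. The log2 fold change of WNT6 was 1.66 (SE 0.49, 95% interval 0.54 to 2.79, adjusted p = 0.0523). It was 2.80 without control replicate 1 and 1.21 without cadmium replicate 1. Both genes thus lay just outside the threshold, and they passed it in some of the other fits (WNT10B in 6 of 12, WNT6 in 4 of 11). WNT10B had 2.97% and 4.18% of the summed ligand RPKM without cadmium, against 7.44% and 8.09% after it, and WNT6 had 1.68% and 0.832%, against 7.03% and 4.04%.

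These low ligands have family neighbours in the genome. WNT6 and WNT10A lie 6300 bp apart on chromosome 2 on the same strand, and WNT10B and WNT1 lie 6594 bp apart on chromosome 12 on opposite strands (hg19). WNT10A had 0.768 CPM and 1.31 CPM in the controls and 1.40 CPM and 0.885 CPM with cadmium (log2 change 0.33, SE 0.44, adjusted p = 0.641), so its groups overlapped where those of WNT6 did not. WNT1 had 0 reads in 3 libraries and 5 in cadmium replicate 1. The difference in response within either pair was not tested.

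The remaining tested ligands gave overlapping groups. WNT7B had 2.99 CPM and 2.49 CPM in the controls and 2.84 CPM and 3.35 CPM with cadmium (log2 change 0.13, adjusted p = 0.774). WNT2B was between 1.04 CPM and 1.26 CPM in all 4 libraries (log2 change 0.12, adjusted p = 0.855). WNT9A rested on 4 and 5 reads in the controls and 23 and 7 reads with cadmium (log2 change 1.17, SE 0.69, adjusted p = 0.271). Its value was 0.084 without control replicate 1 and 1.99 without control replicate 2, and neither passed.

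Ligands with reads that were too few to test were WNT11 (10, 4, 21 and 7 reads in control replicates 1 and 2 and cadmium replicates 1 and 2) and WNT4 (8, 3, 11 and 10 reads). WNT8B, WNT3A, WNT1 and WNT16 had at most 5 reads in a library. WNT3A, the ligand most used to activate the beta-catenin branch in culture, had at most 1 read in a control, and 5 and 3 reads in the cadmium libraries. WNT2, WNT7A, WNT8A and WNT9B had 0 reads, which allows up to 3 reads in each library. At this depth no difference was detectable for these ligands.

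Frizzled genes encode the membrane receptors that bind Wnt ligands, and 8 of 10 were tested, of which 1 rose and 1 fell. The share called was 25%, against 16.5% of all genes. FZD2, the most abundant of them, lies at chr17:42634812-42638630 (hg19, plus strand). It had 158 CPM and 155 CPM in the controls and 116 CPM and 127 CPM with cadmium, from 4106, 1303, 3541 and 2007 reads. Both cadmium libraries were below both controls. The means were 156 ± 2.09 CPM and 121 ± 8.02 CPM (SD, n = 2 each), and the gene fell with a log2 fold change of -0.37 (SE 0.087, 95% interval -0.56 to -0.17, adjusted p = 0.0261). The authors' deposited table gave FZD2 a log2 ratio of -0.350 with an adjusted p of 0.0109. The log2 fold change was -0.29 without cadmium replicate 1 and -0.43 without cadmium replicate 2, and the call was lost in both fits.

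FZD4, a receptor for Wnt ligands and for the vascular ligand norrin, lies at chr11:86656717-86666440 (hg19, minus strand). It had 3.92 CPM and 4.27 CPM in the controls and 8.49 CPM and 8.35 CPM with cadmium, from 102, 36, 260 and 132 reads. The groups were well apart and replicates were close. The means were 4.10 ± 0.253 CPM and 8.42 ± 0.0982 CPM (SD, n = 2 each), and the gene rose with a log2 fold change of 1.05 (SE 0.20, 95% interval 0.59 to 1.51, adjusted p = 0.0135). The authors' deposited table gave FZD4 a log2 ratio of 0.723 with an adjusted p of 0.0108. This ratio was smaller than the deposited mean RPKM of 0.489 in control and 1.02 with cadmium would give. Without cadmium replicate 1 the log2 fold change was 1.04 and without cadmium replicate 2 it was 1.06, and the call was lost in both fits.

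FZD4 shares 7229 bp with PRSS23, a serine protease gene on the opposite strand. PRSS23 had 2562 and 746 control reads, against 2510 and 1218 reads after cadmium (log2 change -0.24, SE 0.096, adjusted p = 0.122), so its value was in the opposite direction to that of FZD4. Use of strand is not given in the sources used here, and without strand the reads of the 2 genes in the shared stretch cannot be told apart, so the FZD4 value is uncertain.

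FZD2 and FZD6 together made up most of the frizzled signal in every library. In summed frizzled RPKM, FZD2 held 58.1% and 56.0% in the controls and 50.4% and 54.7% with cadmium, FZD6 held between 24.6% and 28.8%, and FZD4 held 0.747% and 0.816% in the controls and 1.92% and 1.87% with cadmium. The rise of FZD4 was thus larger as a ratio, and the fall of FZD2 was larger in RPKM: FZD4 went from a mean of 0.489 RPKM to 1.02 RPKM and FZD2 from 35.6 RPKM to 28.3 RPKM. The summed frizzled RPKM was 61.9 and 63.1 in the controls and 53.7 and 53.8 with cadmium. This sum was lower in both cadmium libraries, and no test was made of it.

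The other frizzled genes did not pass. FZD6, which is known for roles in planar polarity, had 64.7 CPM and 76.1 CPM in the controls and 64.0 CPM and 60.0 CPM with cadmium (log2 change -0.17, SE 0.11, adjusted p = 0.302). FZD3, also a planar polarity receptor, had 8.60 CPM and 7.96 CPM in the controls and 11.3 CPM and 12.2 CPM with cadmium. Its groups did not overlap, but the log2 fold change of 0.49 (SE 0.17, 95% interval 0.11 to 0.87) had an adjusted p of 0.0781. FZD7 was between 18.3 CPM and 21.3 CPM in all 4 libraries (log2 change -0.02, SE 0.14, adjusted p = 0.946), an interval of -0.33 to 0.29. FZD5 was between 13.4 CPM and 14.9 CPM (log2 change -0.11, SE 0.14, adjusted p = 0.617). FZD9 and FZD1 had mean levels under 6 CPM in both groups, overlapping groups and log2 fold changes of -0.26 and -0.25 (adjusted p = 0.518 and 0.569). FZD8 had 14, 4, 9 and 2 reads and was not tested, and FZD10 had 0 reads.

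**Figure D3:**
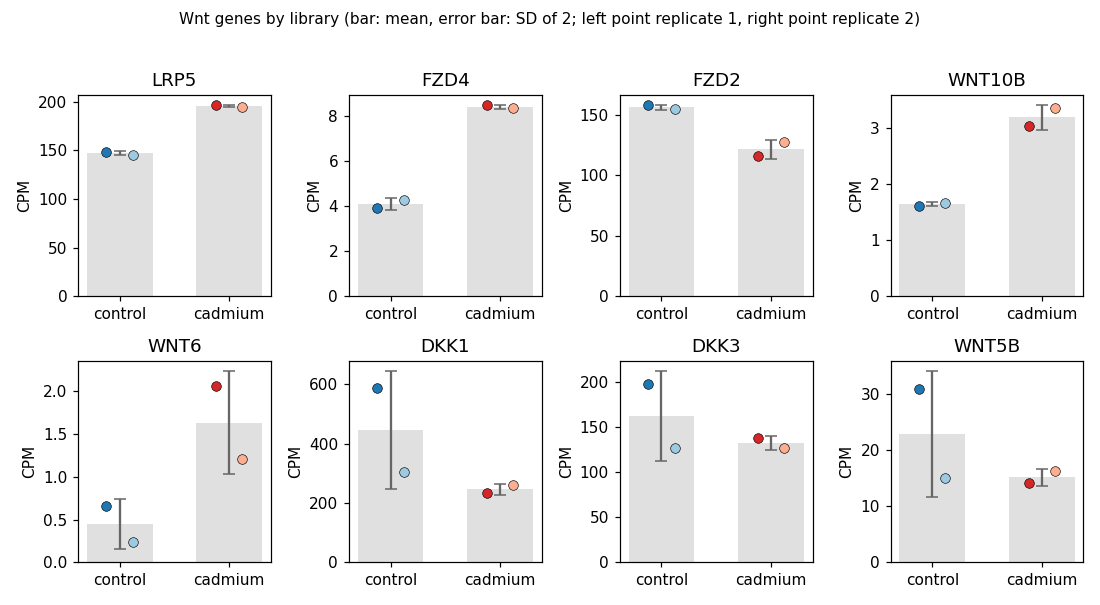
Level in CPM of 8 Wnt genes in each library, with bars for the group mean, error bars for the SD of 2 libraries and 1 point per library. LRP5, FZD4, FZD2, WNT10B, WNT6 and DKK1 show no overlap between groups, while DKK3 and WNT5B overlap. DKK1, DKK3 and WNT5B have 1 high control library.

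LRP5 and LRP6 encode the co-receptors that carry the signal of the beta-catenin branch, and LRP5 rose while LRP6 did not pass. LRP5 lies at chr11:68080077-68216743 (hg19, plus strand). It had 149 CPM and 146 CPM in the controls and 197 CPM and 195 CPM with cadmium, from 3868, 1226, 6025 and 3081 reads. The groups were far apart relative to the spread within each. The means were 147 ± 2.09 CPM and 196 ± 1.28 CPM (SD, n = 2 each), and the gene rose with a log2 fold change of 0.41 (SE 0.078, 95% interval 0.23 to 0.59, adjusted p = 0.0135). The authors' deposited table gave LRP5 a log2 ratio of 0.391 with an adjusted p of 0.00168. The adjusted p was 0.0830 without cadmium replicate 1 and 0.0618 without cadmium replicate 2, with log2 fold changes of 0.41 and 0.42.

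LRP6 had 54.8 CPM and 63.8 CPM in the controls and 52.3 CPM and 63.1 CPM with cadmium. The libraries of each group lay as far apart as those of different groups, and the log2 fold change was -0.03 (SE 0.13, 95% interval -0.32 to 0.25, adjusted p = 0.876). LRP5 was the more abundant of the pair per gene length in each library, with 84.1% and 81.7% of their summed RPKM in the controls and 88.0% and 85.8% with cadmium. The 95% intervals of the changes of LRP5 and LRP6 overlapped slightly, and the difference between them was not tested.

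Secreted antagonists such as DKK1 and the SFRP proteins bind Wnt ligands or their co-receptors outside the cell. The group took in every DKK and SFRP gene by symbol. Of 8 genes, 3 were tested and 0 passed in edgeR, in DESeq2 or in limma-voom, with 0 at an unadjusted p under 0.05. DKK1 (chr10:54074041-54077417, hg19, plus strand) had 586 CPM and 304 CPM in the controls and 233 CPM and 260 CPM with cadmium, from 15269, 2560, 7130 and 4104 reads. Both cadmium libraries were below both controls, and control replicate 1 stood far above the other 3. The means were 445 ± 200 CPM and 246 ± 19.0 CPM (SD, n = 2 each), with a log2 fold change of -0.86 (SE 0.38, 95% interval -2.03 to 0.31, adjusted p = 0.237). For DKK1 the authors' deposited table holds a log2 ratio of -0.437 (adjusted p = 0.222). It too was smaller in size than the deposited mean RPKM of 215 in control and 121 with cadmium would give.

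The size of the DKK1 difference depended on which control was used. It was -0.31 without control replicate 1 and -1.26 without control replicate 2. A fit with 1 control takes its spread from the cadmium pair alone, so it does not measure variation between controls. With all 4 libraries the 2 controls lay further apart than the group means, so no change of DKK1 was called. Because DKK1 held between 71.9% and 81.8% of the summed antagonist RPKM, that sum followed it, at 346 and 187 in the controls and 161 and 168 with cadmium.

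DKK3 also had its highest level in control replicate 1, although with 2 controls neither can be named the outlier. It had 198 CPM and 127 CPM in the controls and 138 CPM and 127 CPM with cadmium, so its groups overlapped (log2 change -0.30, SE 0.21, adjusted p = 0.382). The value was 0.06 without control replicate 1 and -0.58 without control replicate 2. SFRP1, a secreted frizzled-related protein, was low, with 13 and 1 control reads, against 22 and 10 reads after cadmium (log2 change 0.80, SE 0.56, adjusted p = 0.355). Its value was 2.46 without control replicate 1 and 0.44 without control replicate 2, and neither passed. DKK2, DKK4, SFRP2, SFRP4 and SFRP5 had 0 reads in all libraries.

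**Figure D4:**
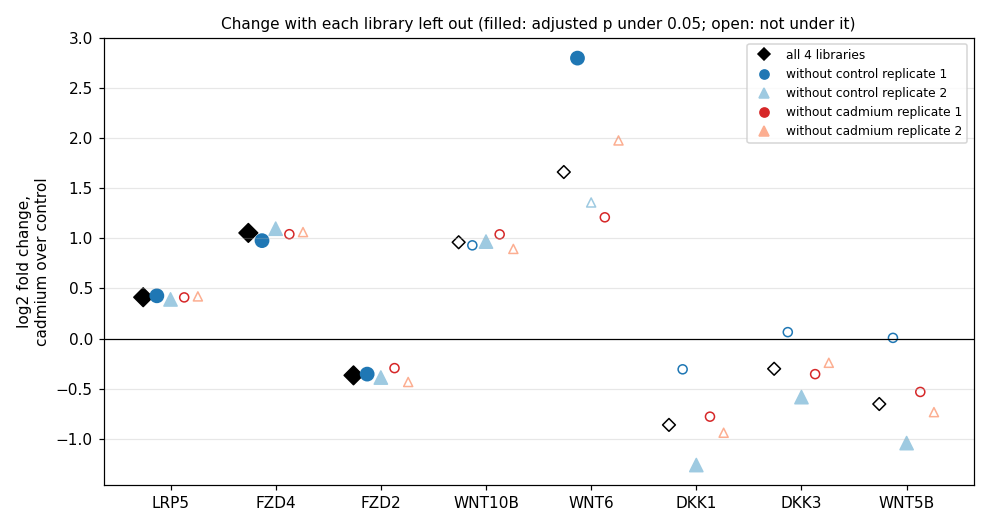
Log2 fold change, cadmium over control, of 8 Wnt genes with all 4 libraries and with each library left out in turn; filled symbols have an adjusted p under 0.05. LRP5, FZD4 and FZD2 keep their direction but lose the call without either cadmium library, with FZD2 between -0.43 and -0.29, while DKK1, DKK3 and WNT5B spread widely with the choice of control.

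The feedback regulators limit Wnt signalling inside the cell or at its surface. Of 4 genes 3 were tested, and 0 passed in edgeR, in DESeq2 or in limma-voom, with 0 at an unadjusted p under 0.05. AXIN2, the scaffold gene widely used as a readout of beta-catenin activity, had 3.88 CPM and 4.87 CPM in the controls and 5.42 CPM and 6.58 CPM with cadmium, from 101, 41, 166 and 104 reads. Both cadmium libraries were above both controls, with a log2 fold change of 0.48 (SE 0.24, 95% interval -0.06 to 1.02, adjusted p = 0.191). AXIN1, the constitutive scaffold, had 99.8 CPM and 105 CPM in the controls and 93.7 CPM and 89.1 CPM with cadmium (log2 change -0.16, SE 0.088, 95% interval -0.36 to 0.04, adjusted p = 0.230). AXIN1 held between 81.0% and 85.0% of the summed feedback RPKM, so it was the most abundant of these transcripts in every library.

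ZNRF3, a ubiquitin ligase that removes frizzled receptors, was between 26.6 CPM and 29.3 CPM in all 4 libraries (log2 change 0.01, SE 0.12, 95% interval -0.25 to 0.27, adjusted p = 0.961). Its paralog RNF43 had 0 reads in all 4 libraries, which allows up to 3 reads in each. ZNRF3 was therefore the only detected member of this pair.

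The rest of the pathway was read from 5 lists that held 123 further symbols, of which 122 had a row and 97 were tested. Of these 14 rose, 6 fell and 77 did not pass (20.6% called, against 16.5% of all genes), with a median log2 fold change of 0.12 against 0.002 for all genes. The genes of Wnt secretion, co-receptors and extracellular modulators had the highest median, 0.26, with 4 of 11 tested genes higher and 0 lower in edgeR. The share called was 36.4%, against 16.5% of all genes. At an unadjusted p under 0.05, 4 of these 11 were higher and 1 lower, beside 4642 of all 13663 genes tested. DESeq2 called 2 higher and 0 lower, and limma-voom called 4 higher and 1 lower. KREMEN1, a receptor that acts with DKK1 against LRP6, had 16.9 CPM and 22.6 CPM in the controls and 54.3 CPM and 37.4 CPM with cadmium. It rose by 1.26 in log2 units (SE 0.21, adjusted p = 0.0134).

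The other 3 that rose in that list were KREMEN2, the R-spondin receptor LGR4 and the WNT5A receptor ROR2. KREMEN2, the paralog of KREMEN1, rose by 0.96 in log2 units (SE 0.26, adjusted p = 0.0392). LGR4 went from 14.5 ± 1.18 CPM to 21.8 ± 2.33 CPM (SD, n = 2 each; log2 change 0.57, adjusted p = 0.0337). ROR2 went from 33.5 ± 1.35 CPM to 43.0 ± 1.58 CPM (log2 change 0.37, adjusted p = 0.0493). Of the 19 called genes named from the 5 lists, KREMEN1, CTBP1, EPHB2, NFATC4 and CELSR2 were called with any single library left out. The other 14 lost the call at least without cadmium replicate 1, where their adjusted p ranged from 0.0593 to 0.377. Some calls also failed in fits that kept all 4 libraries: of 13 alternatives, CCNY passed in 5, CSNK1A1 and RAC1 in 6, and ROR2 and BCL9 in 7. KREMEN2 passed in 10 and was not called by DESeq2 (adjusted p = 0.0640).

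In the beta-catenin destruction complex and Dishevelled list, 0 of 25 tested genes rose and 2 fell, with a median of -0.03. The share called was 8%, against 16.5% of all genes. At an unadjusted p under 0.05, 3 were higher and 4 lower, 7 of 25 beside 4642 of all 13663 genes tested. DESeq2 called 0 in either direction and limma-voom called 0 higher and 2 lower. CSNK1A1, the kinase that primes beta-catenin for degradation, fell from 278 ± 4.85 CPM to 229 ± 8.71 CPM (log2 change -0.28, SE 0.078, adjusted p = 0.0440). CCNY, a cyclin that promotes LRP6 phosphorylation, fell by 0.31 in log2 units (SE 0.089, adjusted p = 0.0469). CTNNB1, the beta-catenin gene itself, lay outside the naming rule and was chosen after its values were seen. It had 447 CPM and 403 CPM in the controls and 376 CPM and 418 CPM with cadmium, so its groups overlapped (log2 change -0.10, adjusted p = 0.480).

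Among TCF/LEF factors and nuclear partners, 2 of 18 tested genes rose and 2 fell, with a median of 0.09. The share called was 22.2%, against 16.5% of all genes. The co-repressor gene CTBP1 fell from 226 ± 3.35 CPM to 154 ± 1.46 CPM (log2 change -0.55, SE 0.078, adjusted p = 0.00626), and the co-activator gene CREBBP fell by 0.41 in log2 units (adjusted p = 0.0166). The co-repressor gene TLE2 rose (log2 change 0.84, adjusted p = 0.0225), as did BCL9, a beta-catenin co-activator (0.44, adjusted p = 0.0385). LEF1 had 0 reads in all 4 libraries.

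Of reported beta-catenin target genes, 3 of 19 tested rose and 1 fell, with a median of 0.17. The share called was 21.1%, against 16.5% of all genes. The Eph receptor genes EPHB3 and EPHB2 rose together. EPHB3 had 5.14 CPM and 3.44 CPM in the controls and 11.7 CPM and 9.42 CPM with cadmium (log2 change 1.24, SE 0.24, adjusted p = 0.0135), and EPHB2 went from 32.8 ± 7.04 CPM to 56.8 ± 4.99 CPM (0.82, adjusted p = 0.0134). PLAUR, the urokinase receptor, rose (0.50, adjusted p = 0.0160), and the mitotic gene BIRC5 fell (-0.47, adjusted p = 0.0105). MYC and CCND1, chosen after their values were seen, did not pass. CCND1 had 63.1 CPM in control replicate 1, apart from 20.1 CPM in control replicate 2 and 21.7 CPM and 22.5 CPM with cadmium. In JUN, also chosen after its values were seen, control replicate 2 stood apart instead, with 177 CPM. The other JUN values were 414 CPM in control replicate 1 and 474 CPM and 388 CPM with cadmium.

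In the planar polarity and calcium branch, 5 of 27 tested genes rose and 1 fell, with a median of 0.09. The share called was 22.2%, against 16.5% of all genes. NFATC4, a calcium-responsive transcription factor, had 34.2 CPM in both controls and 58.8 CPM and 55.6 CPM with cadmium (log2 change 0.74, SE 0.10, adjusted p = 0.00574). The polarity cadherin gene CELSR2 went from 107 ± 9.02 CPM to 166 ± 5.81 CPM (log2 change 0.63, adjusted p = 0.00689). The polarity genes VANGL2 and PRICKLE3 rose by 0.61 and 0.60 on the log2 scale (adjusted p = 0.0358 and 0.0187). RAC1, a small GTPase downstream of this branch, fell by 0.32 in log2 units (adjusted p = 0.0346).

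**Figure D5:**
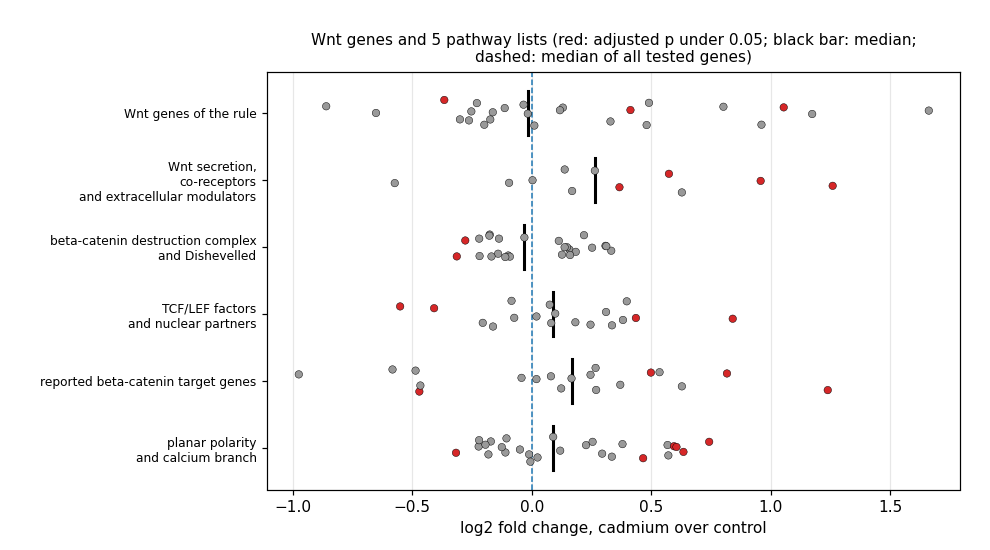
Log2 fold change, cadmium over control, of each tested gene among the Wnt genes of the rule and the 5 pathway lists, with called genes in red, the list median as a black bar and the median of all tested genes as a dashed line. The Wnt genes centre at -0.02 and the secretion and co-receptor list at 0.26.

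Other marker genes moved with the same comparison. The nuclear-retained RNAs MALAT1 and NEAT1 rose (log2 change 0.87 and 0.59, adjusted p = 0.00188 and 0.0228), and the summed CPM of the 4 such RNAs was 720 and 894 in the controls and 1267 and 1302 with cadmium. Of the epithelial markers 5 of 8 were tested, with EPCAM higher (1.36, adjusted p = 0.0131) and KRT7 lower (-1.02, adjusted p = 0.00234). CDH1, with few reads, had a log2 change of 1.45 that passed only at an unadjusted p under 0.05 (adjusted p = 0.0944). KRT8 and KRT18 did not pass (0.02 and 0.18). The summed CPM of the epithelial markers ranged from 1269 to 1475 in the controls and from 1086 to 1196 with cadmium. Of 8 fibroblast markers 4 were tested and 0 were called by edgeR or limma-voom and 1 by DESeq2, with COL1A1 at an unadjusted p under 0.05 in edgeR, and the summed CPM ranged from 4258 to 5089 in the controls and from 3816 to 4036 with cadmium. Of 6 endothelial markers only TIE1 was tested, and it rose from a low level (log2 change 1.68, adjusted p = 0.0160), with PECAM1 at 0 reads and summed CPM of 1.42 and 1.19 in the control libraries, against 3.79 and 3.48 after cadmium. Of 7 leukocyte markers 3 were tested and CD68 and ITGAM rose (0.59 and 1.69, adjusted p = 0.00857 and 0.0490), while DESeq2 called 1 of the 3. ITGAM was a low gene, with 8 and 2 control reads, against 30 and 14 reads after cadmium. The third, CD14, did not pass (log2 change 0.11, adjusted p = 0.826). The summed CPM of the 7 leukocyte markers was 63.1 and 64.2 in the controls and 95.6 and 89.1 with cadmium, with CD3E and LYZ at 0 reads. The part of these differences in the values of the Wnt genes was not tested. In such bulk RNA, fewer cells of a type and less RNA per cell cannot be told apart.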

How the data were processed

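RNA-seq of 4 BEAS-2B libraries, 2 per group, was analysed. Per the labels' protocols, total RNA was extracted by RNeasy columns and made into TruSeq RNA libraries. STAR 2.4, DESeq2, DESeq and hg19 are named by the submitters' processing notes, with no role attached. How reads were counted, with which annotation and whether by strand is not given in the sources used here. For each library the authors deposited raw read counts for each RefSeq gene, per the file headers, and the authors' RPKM. The authors' deposited comparison table adds a log ratio, taken as log2, with its p-value before and after adjustment. How this ratio was computed is not given in the sources used here.

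Deposited counts were filtered with filterByExpr, scaled with TMM and tested with edgeR 4.0.16 (R 4.3.3), using the robust quasi-likelihood test with the group as the only term. P-values were adjusted by Benjamini-Hochberg across all 13663 tested genes, with a threshold of 0.05, and belong to edgeR unless another source is named. CPM uses TMM factors, and means are given ± SD. SEs of log2 fold changes come from the F statistic. Members and pathway lists were chosen with earlier results of these data known. Described with full values were members past the threshold, members with a mean of at least 5 CPM and the leading members of each family. Up to 4 passing genes with the largest change were named from each pathway list, and the largest passing change in the opposite direction. Alternatives were a replicate block, a crossed replicate block (chosen after seeing the data), DESeq2 size factors, library size alone, no filter, a filter of 5 CPM in 2 libraries, DESeq2 1.42.0, limma-voom (limma 3.58.1), thinning to equal depth and leaving out each library. The procedure was also run on simulated counts. These took a common spread for genes of similar level and left out gene-specific differences between replicates, such as those of DKK1.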

Additional observations from a re-analysis of the deposited data

How the results depend on the processing

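LRP5, FZD4 and FZD2 kept their direction in all 13 alternatives and their call in 11, with log2 fold changes of 0.39 to 0.47, 0.87 to 1.11 and -0.43 to -0.29; the call was lost without either cadmium replicate. Leaving out 1 library gave 369 to 1977 genes higher and 235 to 1791 lower over all genes, 0 to 3 Wnt genes higher and 0 to 4 lower, and 4 to 21 other pathway genes higher and 1 to 13 lower. The 4 lower Wnt genes came without control replicate 2 and were DKK1, DKK3, FZD2 and WNT5B. Library size alone gave 682 genes lower over all genes, with 67.9% of calls higher against 53.6%, a median shift of 0.06, and 3 other pathway genes lower. The number of Wnt genes higher was 4 with no filter and 4 with limma-voom, where WNT10B and WNT6 also passed. Other pathway genes lower numbered 3 under the stricter filter and 3 when thinned to equal depth. The cause of these differences was not tested.

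Deviations of same-numbered libraries had a correlation of -0.21 over 13663 genes. This value alone cannot show whether the replicate numbers carry a pairing, which was not tested. With the replicate block 1073 genes were higher and 811 lower over all genes, 3 Wnt genes were higher, and 3 other pathway genes were lower. The crossed replicate block, chosen after seeing the data, gave 1551 higher and 1471 lower.

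Reversals of sign were confined to genes that were not called with all 4 libraries, and the cause was not tested. ZNRF3 was -0.0053 with limma-voom and -0.006 when thinned. FZD7 was 0.0415 and LRP6 0.0234 with library size alone, and 0.0218 and 0.003 under the stricter filter. When thinned, FZD1 was 0.0624 and WNT7B -0.0745. Leaving out 1 library gave ranges of -0.0582 to 0.0885 for ZNRF3, -0.1292 to 0.082 for FZD7, -0.5249 to 0.0212 for FZD9, -0.4704 to 0.1389 for FZD1, -0.1719 to 0.1007 for LRP6, -0.5836 to 0.0646 for DKK3, -1.0421 to 0.0075 for WNT5B, -0.1352 to 0.6178 for WNT10A and -0.0045 to 0.2731 for WNT2B.

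Where 1 library was left out, the lone sample of a group is assumed to vary like the other group. With 2 libraries per group, and 8609243 reads in the shallowest, changes of genes with few reads had SEs up to 0.69 on the log2 scale, against 0.078 for LRP5.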
